A study of Oryctolagus cuniculus with 20 samples.

Results

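Common carotid artery of the rabbit that had been moved into a vein was compared with the opposite, unoperated carotid artery 14 days after surgery. The comparison took 8 of the 20 RNA sequencing libraries of the series, chosen by their labels and by no measured value. Graft day 14 was 4 libraries of transplanted artery, and control day 14 was 4 libraries of contralateral artery collected on the same day. The other 12 libraries, grafts and controls of day 30 and external jugular vein, entered a filter on low values and 1 alternative fit. Strain, age and sex of the animals (Oryctolagus cuniculus) are not stated, and neither is whether each library came from its own animal, whether a graft and a control share one, or whether vein wall was collected with the graft. Every sample, controls included, carries the same transplantation label, and the cell line field reads HASMC although species, tissue and vessel fields describe rabbit artery. P-values therefore measure the spread between these samples only. The title of the series names thrombospondin-4 and apoptosis of vascular smooth muscle cells as its subject.

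The media of an artery is built of smooth muscle cells, which in their contractile state fill with actin and smooth muscle myosin, hold calcium in an internal store and fix their filaments to the matrix through integrins and a dystrophin complex. Serum response factor and its partner myocardin drive those genes. After injury or a change of flow and stretch the same cells can lower contractile genes, divide and make matrix, and the wall can fill with blood-derived macrophages and with new small vessels. In whole tissue, fewer cells of a type and less RNA per cell cannot be told apart.

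Values are FPKM, fragments per kilobase of transcript scaled to the library, so the number of reads behind a value is unknown. Transcripts were summed to 23669 genes, and those that reached 1 FPKM in at least 4 of the 20 libraries were tested (8657). Changes are log2(FPKM + 1) of grafts minus controls from limma, which understates changes of low genes, and a gene was called at an adjusted p under 0.05. In control day 14 the markers of contractile smooth muscle were abundant: ACTA2, smooth muscle actin, held 7087, 7303, 7229 and 7061 FPKM in replicates 1 to 4, and TAGLN, transgelin, held 758, 958, 939 and 694 FPKM. Values of a gene are given below in the order of replicates 1 to 4.

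Libraries within each group resembled each other to unequal degrees. Over 1253 genes above 30 FPKM, any pair of controls differed by a median of 0.0658 to 0.0924 on the log2 scale. Graft replicates 3 and 4 differed by 0.107, close to the controls, whereas the other pairs of grafts differed by 0.324 to 0.520. Graft replicate 3 lay within a median of 0.0535 of a mean of the others in which replicate 4 had a weight of 0.85. Counts of most lists are therefore given also from a fit that takes the 4 controls as 1 sample, called the single-control fit, and the total from one that in addition leaves out graft replicate 3. Its spread comes from the grafts alone, and the single control is assumed to vary like them.

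Of the 8657 genes, 4401 (50.8%) were called, 3004 (34.7%) higher and 1397 (16.1%) lower in grafts. The groups did not overlap for 4333 genes (50.1%), with all grafts above all controls for 33.9% and all below for 16.1%. The single-control fit called 550 genes (6.35%) higher and 392 (4.53%) lower. All 550 of the higher genes and 375 of the lower (4.33% of those tested) were also called with the 4 controls apart, and a list's calls in the single-control fit below are those shared by both fits. Without graft replicate 3 as well the single-control fit called 20 genes (0.231%) higher and 58 (0.67%) lower. The median change over all genes was 0.26, and other scalings moved it to 0.03 (median of ratios) and -0.02 (quantiles), so 68.3% of calls were higher against 52.1% (2206 higher, 2029 lower) and 48.6% (2072 higher, 2188 lower) under these scalings. Rescaling each library to the same total (TPM) gave 1764 higher and 1341 lower calls. Counts of a list below are read against the 34.7% and 16.1% of all genes, and its median change against 0.26, with no test of the list itself. In any list, a gene near 0 in controls entered the test through libraries where it was high, which favours rises. The shares of members called are shown for a selection of the lists in the bar plot of gene lists.

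**Figure D1:**
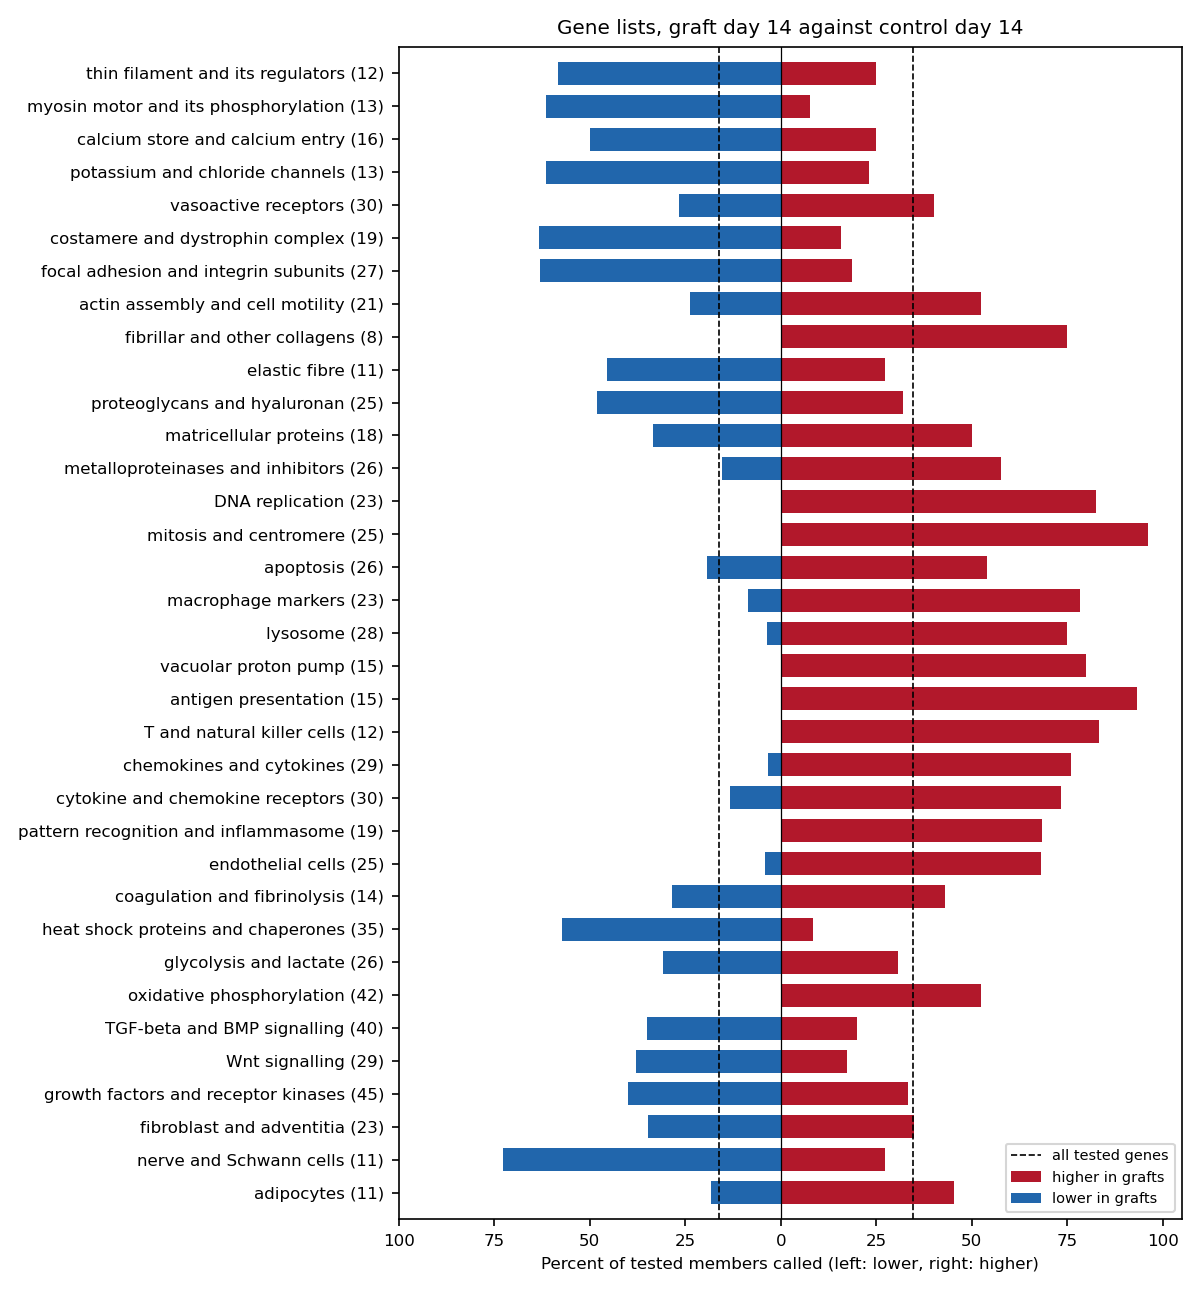
Percent of the tested members of gene lists called higher (right) or lower (left) in grafts than in controls of day 14 (limma, adjusted p under 0.05). A selection of the 72 lists is drawn, with the number of tested members beside each. Dashed lines mark the 34.7% higher and 16.1% lower among all 8657 genes. Cell division and antigen presentation lists lie far to the right, and the chaperone, costamere and myosin lists lie to the left.

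Genes of the actin filament of smooth muscle fell, and a few tropomyosin and caldesmon genes did the opposite. Of 12 tested members, 7 fell and 3 rose, with a median change of -1.87; 4 falls and 1 rise were also called by the single-control fit. ACTA2 held 468, 825, 632 and 640.1 FPKM in grafts, against 7087, 7303, 7229 and 7061 FPKM in controls, a change of -3.51 (SE 0.19, adjusted p = 4.61e-06). TAGLN, an actin-binding protein of smooth muscle, held 109, 48.4, 49.2 and 60.5 FPKM in grafts, against 758, 958, 939 and 694 FPKM in controls. No graft reached the lowest control for either gene. LMOD1, leiomodin, which starts actin filaments in smooth muscle, held 29.8, 46.4, 12.8 and 7.41 FPKM in grafts, against 461, 463, 463 and 454 FPKM in controls, and was highest in graft replicates 1 and 2 among grafts. ACTG2, the actin of visceral smooth muscle, showed the same order of grafts (23.7, 49.2, 12.3 and 8.14 FPKM, against 149, 154, 149 and 145 FPKM in controls). SYNPO2, synaptopodin 2, a partner of actin at the Z-line and in dense bodies, changed by -4.21.

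The opposite direction was seen for TPM1, a tropomyosin that lies along the actin filament, with 15.8, 24, 21.7 and 24.3 FPKM in grafts and 7.36, 7.74, 8.68 and 7.25 FPKM in controls (change 1.34, SE 0.15, adjusted p = 0.000151). CALD1, caldesmon, which holds myosin off actin, rose by 1.14 to a graft mean of 116 ± 14.8 FPKM, against 52.1 ± 5.31 FPKM in controls (SD, n = 4 each). The tropomyosin gene TPM4 rose by 0.76, and TPM2 did not pass (0.02, adjusted p = 0.929). These genes have forms outside muscle as well, which a summed gene level does not separate.

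Most genes of the myosin motor and its switch fell. In the myosin list 8 of 13 members fell and 1 rose (median -1.69), 3 of the falls also in the single-control fit. MYH11, the heavy chain of smooth muscle myosin, held 1.6, 2.6, 0.43 and 0.19 FPKM in grafts, against 33.1, 27.7, 26.8 and 28.6 FPKM in controls. MYLK, the kinase that switches this myosin on, held 9.05, 11.8, 7.11 and 5.63 FPKM in grafts, against 73.9, 79.5, 76.9 and 75.1 FPKM in controls. The changes were -3.91 (SE 0.34, adjusted p = 4.98e-05) and -3.09 (SE 0.19, adjusted p = 8.14e-06), with no overlap between the groups. PPP1R14A, an inhibitor of the myosin phosphatase, changed by -3.58. The light chain MYL6, which non-muscle myosin shares, fell by 1.66 on the log2 scale, and MYH9, a non-muscle heavy chain, rose by 0.93.

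Among transcription factors of the contractile programme, SRF, serum response factor, fell to 24.4, 26.4, 20.2 and 20.3 FPKM in grafts, against 51.3, 56.3, 54.6 and 54.1 FPKM in controls (-1.22, adjusted p = 4.86e-05). MYOCD, myocardin, was under 1 FPKM in every library, at 0.04, 0.15, 0 and 0 FPKM in grafts and 0.36, 0.71, 0.43 and 0.1 FPKM in controls, and did not pass (adjusted p = 0.053), though it did without graft replicate 2 or control replicate 4 (adjusted p = 0.0177 to 0.0496). KLF4, a factor that can repress smooth muscle genes, held 82.7, 37.6, 20.6 and 10.4 FPKM in grafts, against 8.78, 9.89, 9.36 and 9.61 FPKM in controls. All 4 grafts stood above the controls, with replicate 4 just above them (change 1.52, adjusted p = 0.0446). The call was lost when graft replicate 1, 2 or 3 or any 1 of the controls was left out (change 1.02 to 1.68, adjusted p = 0.0573 to 0.0941).

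**Figure D2:**
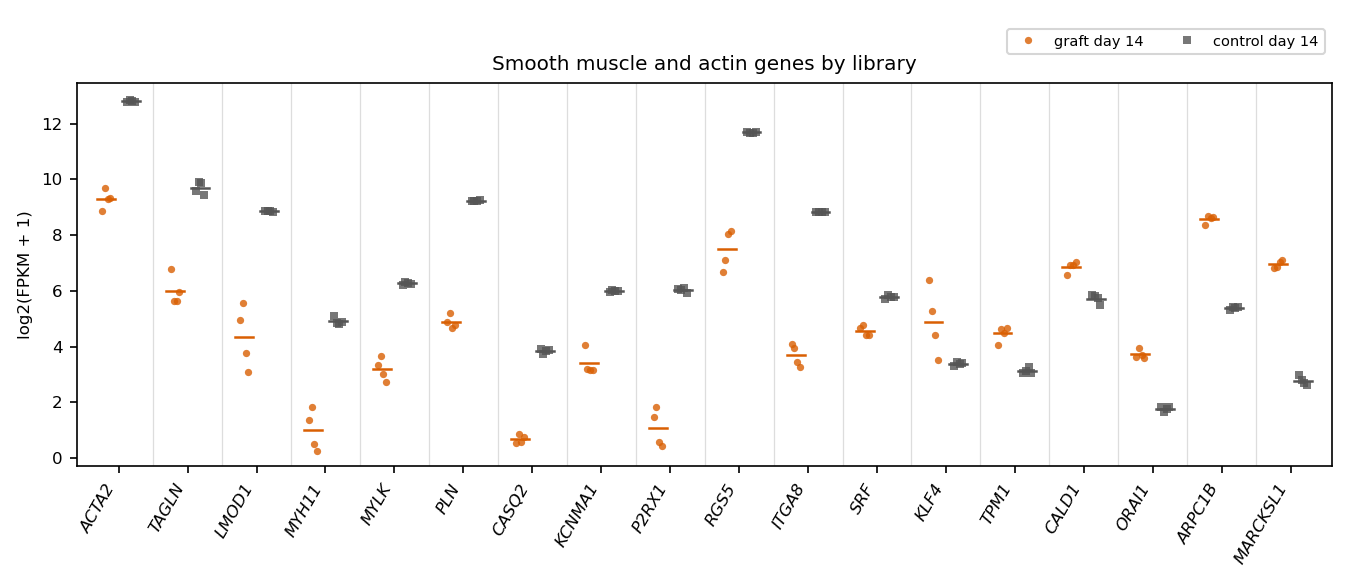
Levels of smooth muscle and actin genes on a log2(FPKM + 1) axis, 1 column per gene, with the 4 grafts of day 14 (orange, left) and the 4 controls of day 14 (grey, right) as points and group means as bars. ACTA2, MYH11, PLN and ITGA8 lie lower in all grafts than in any control, and TPM1, CALD1 and ORAI1 lie higher.

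Several RNAs of the calcium store fell, and some of calcium entry rose. PLN, phospholamban, which restrains the pump that fills the store, held 28.8, 36.3, 24.4 and 26.1 FPKM in grafts, against 597, 594, 599 and 608 FPKM in controls (change -4.34, SE 0.12, adjusted p = 2.1e-07). CASQ2, which buffers calcium inside the store, held 0.45, 0.84, 0.49 and 0.71 FPKM in grafts, against 14, 12.5, 13.4 and 13.9 FPKM in controls. Both were called by the single-control fit, as were the release channels RYR2 (-2.15) and ITPR1 (-1.07) and the junction protein JPH2 (-3.43). ORAI1, the pore of store-operated calcium entry, held 11.2, 14.5, 12 and 11.2 FPKM in grafts, against 2.59, 2.13, 2.41 and 2.56 FPKM in controls (1.95, adjusted p = 7.13e-06). ORAI3 rose by 1.40, also in the single-control fit, and STIM2, a sensor that opens these pores, by 1.23. Over the list 8 of 16 members fell and 4 rose, with a median of -0.16; 5 of these falls and 2 of these rises held in the single-control fit.

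Potassium and chloride channel genes fell for the most part, 8 of 13 against 3 rises (2 and 1 in the single-control fit), whereas receptors of vasoactive signals went both ways. KCNMA1 and KCNMB1, pore and smooth muscle subunit of the large calcium-activated potassium channel, changed by -2.59 and -1.54, and the voltage-gated KCNA5 by -2.89. P2RX1, the ATP-gated channel of sympathetic contraction, held 1.79, 2.56, 0.48 and 0.34 FPKM in grafts, against 65.6, 64.7, 68.2 and 59.6 FPKM in controls (-4.96, SE 0.31). The serotonin receptor HTR1B (-3.18), the prostaglandin receptor PTGER3 (-2.92) and the adrenergic receptor ADRA1B (-2.58) fell too, all 3 also in the single-control fit. PTGER4, the prostaglandin E receptor coupled to cyclic AMP, rose to 11.1, 11.1, 9.94 and 9.83 FPKM in grafts, against 1.61, 1.49, 1.68 and 1.82 FPKM in controls. Of 30 receptors tested, 8 fell and 12 rose, and the balance turned to 9 falls and 8 rises with median-of-ratios scaling and to 5 and 1 in the single-control fit. Of 20 cyclic nucleotide genes 6 fell and 3 rose (7 and 1 with median-of-ratios scaling, 3 and 0 in the single-control fit). PDE5A, the phosphodiesterase that ends cyclic GMP signals, changed by -2.57, and MRVI1, a target of cyclic GMP kinase at the calcium store, was listed at 0 in all 4 grafts, against 11.9, 13.5, 12.4 and 10.2 FPKM in controls. RGS5, a brake on G protein signals that marks arterial smooth muscle and pericytes, held 102, 137, 262 and 286 FPKM in grafts, against 3319, 3257, 3277 and 3322 FPKM in controls (-4.19, SE 0.33). Its relatives RGS1 and RGS10 of leukocytes rose by 3.37 and 2.96, with all 3 calls kept in the single-control fit.

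Genes that link filament, membrane and matrix fell as well. Among 19 costamere and dystrophin complex genes 12 fell and 3 rose (median -0.82), and among 27 integrin and focal adhesion genes 17 fell and 5 rose (median -0.97). The single-control fit kept 3 falls and 1 rise of the costamere list, and 6 falls and 1 rise of the integrin list. ITGA8, the integrin chain of contractile smooth muscle, held 15.9, 14.4, 9.83 and 8.59 FPKM in grafts, against 454, 453, 454 and 458 FPKM in controls (-5.15, SE 0.18, adjusted p = 5.58e-07). SGCD and SGCB, sarcoglycans of the dystrophin complex, changed by -3.65 and -2.60. SSPN, sarcospan, which sits beside the sarcoglycans, held 31.2, 41.6, 21 and 15.7 FPKM in grafts, against 0, 0, 1.27 and 0 FPKM in controls, and rose by 4.44. VCL, vinculin, fell to 5.03, 4.61, 1.96 and 0.69 FPKM in grafts, against 33, 33.4, 30.2 and 29.8 FPKM in controls, and VIM, the intermediate filament vimentin, fell by 1.48 on the log2 scale. ITGA4, an integrin chain of leukocytes, rose by 2.44, with 4.56, 3.21, 12.1 and 14.2 FPKM in grafts and 0.54, 0.59, 0.45 and 0.5 FPKM in controls.

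Genes of actin assembly and cell movement went the other way from the contractile filament, with 11 of 21 higher and 5 lower (median 1.24); the single-control fit kept 7 of the rises and 0 of the falls. ARPC1B, a subunit of the complex that branches actin filaments, held 324, 415, 388 and 397 FPKM in grafts, against 39.2, 42.3, 41.2 and 41.6 FPKM in controls. MARCKSL1, which binds actin at the membrane, held 113, 115, 129 and 138 FPKM in grafts, against 6.85, 5.96, 5.54 and 5.16 FPKM in controls. All grafts stood above all controls in both (3.18, SE 0.10, and 4.18, SE 0.11). CORO1A, the coronin of leukocytes, rose by 3.89, and CFL2, the cofilin of muscle, fell to 10.6, 1.84, 12.2 and 11.3 FPKM in grafts, against 127, 111, 115 and 124 FPKM in controls. The thymosin TMSB10, which holds actin monomers, held 10668, 12042, 13169.7 and 11979.9 FPKM in grafts, against 3172, 2975, 3438 and 2566 FPKM in controls, a call lost in the single-control fit.

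Fibrillar collagens rose. COL1A2 held 2377, 2773, 3247 and 3472 FPKM in grafts, against 574, 584, 583 and 561 FPKM in controls, and COL1A1 held 116, 110.4, 105 and 85.4 FPKM in grafts, against 15.6, 15.3, 17.6 and 12.4 FPKM in controls. Both chains of collagen I were higher in every graft than in any control, by 2.35 (SE 0.15) and 2.70 (SE 0.13). COL11A1, a collagen that seeds fibrils, held 5.47, 26.7, 23.8 and 27.8 FPKM in grafts, lowest in replicate 1, against 0.18, 0.28, 0.16 and 0.26 FPKM in controls. Of 8 tested collagen genes 6 rose, 2 of them also in the single-control fit, and 2 did not pass. The lowest change was -2.75. All grafts lay below all controls for 1 gene, and 1 was called lower with median-of-ratios scaling. A further 11 collagen genes were under the filter. Of 17 genes that fold, cut or link collagen 9 rose and 3 fell (3 and 1 in the single-control fit): PLOD1, a lysyl hydroxylase, rose by 1.71 and the lysyl oxidase relative LOXL1 by 1.55, whereas PCOLCE2, an enhancer of procollagen cleavage, fell by 3.21 on the log2 scale.

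Small leucine-rich proteoglycans were among the deepest falls. EPYC, epiphycan, held 1.35, 4.91, 0.9 and 0.59 FPKM in grafts, against 171, 166, 168 and 177 FPKM in controls (-6.07). PRELP, which ties collagen to basement membrane, was listed at 0 in all 4 grafts, against 34.4, 31.3, 25.4 and 27.5 FPKM in controls. OGN, osteoglycin, held 591, 549, 386 and 346 FPKM in grafts, against 2132, 2058, 2097 and 2176 FPKM in controls. On the other side HAS2, which makes hyaluronan, rose by 2.57, and SRGN, the proteoglycan of leukocyte granules, by 3.77. The list counted 12 falls and 8 rises among 25 genes, of which the single-control fit kept 4 and 3.

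Of 11 elastic fibre genes 5 fell and 3 rose (2 and 1 in the single-control fit). Microfibril genes were among the falls, with MFAP4 at 375, 687, 353 and 334 FPKM in grafts and 2468, 2452, 2543 and 2402 FPKM in controls (-2.56), MFAP5 at -2.10 and FBLN5, which assembles elastin onto microfibrils, at -1.78. FBN1, fibrillin-1, did not pass (-0.08, adjusted p = 0.375), and its relative of growing tissue FBN2 rose by 1.91. The laminin chains LAMA2 and LAMB2 of muscle basement membrane changed by -2.09 and -1.77, and LAMB1 rose by 1.35. Elastin itself, under its usual symbol, was not analysed here.

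Among proteins that sit in the matrix without building it, THBS4, thrombospondin-4, held 15.3, 71.8, 78.6 and 85.5 FPKM in grafts, against 0.18, 0.13, 0.31 and 0.33 FPKM in controls (5.44, SE 0.51, adjusted p = 7.29e-05). Graft replicate 1 lay well under the other grafts, and a similar order was seen for COL11A1. THBS1 rose by 2.98 and TNC, tenascin C of healing wounds, by 2.88. FN1, fibronectin, held 115, 113, 295 and 325 FPKM in grafts, against 34, 36.1, 35.1 and 37.7 FPKM in controls, and SPP1, osteopontin, held 104, 202, 483 and 554 FPKM in grafts, against 88.1, 85.6, 95.4 and 82.8 FPKM in controls. Both were highest in graft replicates 3 and 4. The call of SPP1 was lost when graft replicate 3 or 4 or any 1 of the controls was left out (change 1.29 to 1.67, adjusted p = 0.0515 to 0.064). SPARCL1 and NOV, 2 further matricellular genes, changed by -3.64 and -3.18, and MGP, which restrains calcification, by -2.23.

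Many tested proteases that cut matrix rose. Of 26 metalloproteinase and inhibitor genes 15 rose and 4 fell, with 7 of the rises also in the single-control fit. A further 14 were under the filter and were not tested. Members near 0 in controls entered through libraries where they were high, which in part sets the count of rises. MMP12, the elastase of macrophages, held 264, 232, 474 and 527 FPKM in grafts, against 0.03, 0.1, 0.07 and 0.07 FPKM in controls, the largest rise of a named gene (8.37, SE 0.27, adjusted p = 3.16e-07). MMP9, a gelatinase, held 105, 67.7, 204 and 222 FPKM in grafts, against 1.66, 1.08, 1.22 and 1.28 FPKM in controls. MMP14, the membrane-bound activator of the gelatinase MMP2, held 177, 175, 222 and 241 FPKM in grafts, against 14.9, 15.9, 12 and 12 FPKM in controls, and MMP2 itself rose by 2.02. These 4 genes were called in the single-control fit and did not overlap between groups. ADAM12, a metalloproteinase of tissue repair, rose by 4.58 to 22.1, 24.1, 37.2 and 38.7 FPKM in grafts, against 0.29, 0.26, 0.27 and 0.31 FPKM in controls. The inhibitors TIMP3 and TIMP4 changed by -1.67 and -0.89.

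**Figure D3:**
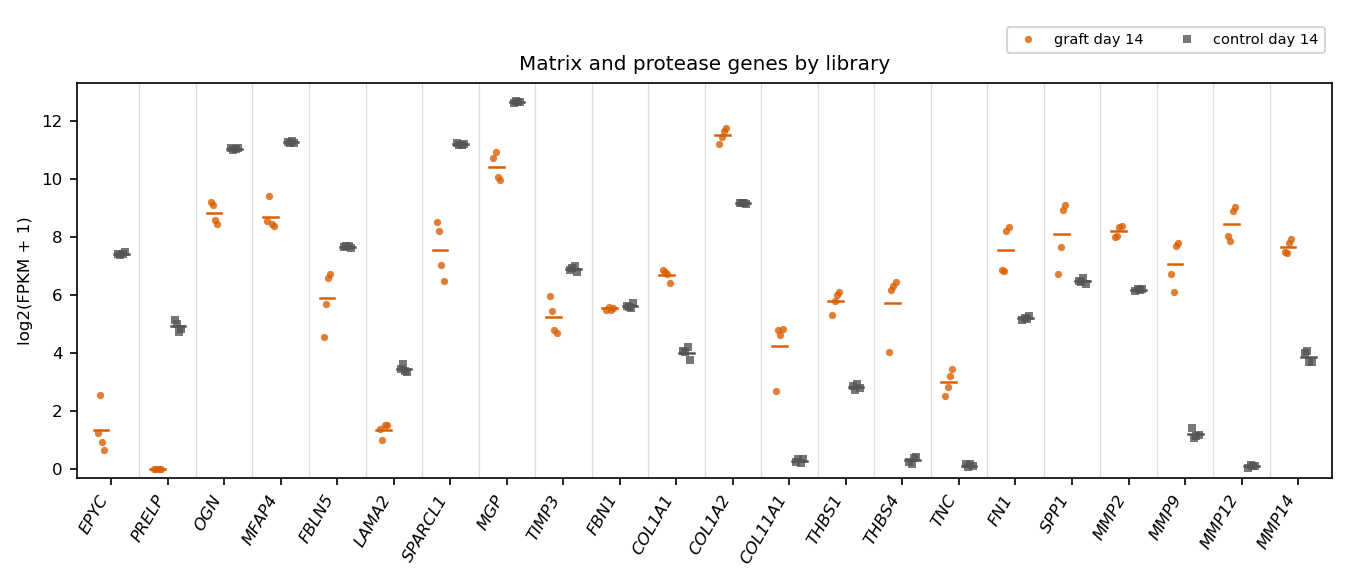
Levels of matrix and protease genes on a log2(FPKM + 1) axis, with the 4 grafts of day 14 (orange, left) and the 4 controls of day 14 (grey, right) as points and group means as bars. EPYC, OGN and MFAP4 lie lower in all grafts, and COL1A1, THBS4, MMP9 and MMP12 lie higher, THBS4 with graft replicate 1 at 15.3 FPKM under the other 3.

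Tested genes of cell division were higher in grafts. Of 25 tested mitosis genes 24 rose and of 23 replication genes 19 rose, with medians of 1.97 and 1.50. The single-control fit called 6 and 11 of them. A further 20 mitosis and 13 replication genes were under the filter and were not tested, and a gene near 0 in controls entered the test through libraries where it was high, so these counts were set in part by the filter. PCNA, the sliding clamp of DNA polymerase, held 47, 53.8, 57.7 and 60.9 FPKM in grafts, against 18.3, 16, 18.5 and 20 FPKM in controls. MCM6, a subunit of the replicative helicase, held 15.7, 17, 24.1 and 27 FPKM in grafts, against 1.19, 1.65, 1.23 and 1.22 FPKM in controls. Controls were low for genes used in mitosis alone: CCNB1, the mitotic cyclin, held 6.34, 8.18, 13.2 and 14.1 FPKM in grafts, against 0.23, 0.08, 0.14 and 0.03 FPKM in controls, and CDK1, its kinase, held 3.64, 7.14, 7.08 and 8.06 FPKM in grafts, against 0.01, 0.05, 0.08 and 0.04 FPKM in controls. For MCM6 and CCNB1, graft replicates 3 and 4 stood above replicates 1 and 2.

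Among cyclins, kinases and their inhibitors 14 of 21 rose and 1 fell (3 and 1 in the single-control fit). More apoptosis genes rose than fell. CDKN1A, which halts the cycle, rose by 1.77. BAX, which opens the mitochondrial membrane in apoptosis, held 31.3, 29.6, 38.7 and 52.1 FPKM in grafts, against 12.6, 7.86, 14.1 and 11.9 FPKM in controls. BCL2, which blocks that step, held 0.51, 0.57, 1.22 and 1.58 FPKM in grafts, against 4.57, 6.75, 5.23 and 7.63 FPKM in controls. The changes were 1.62 and -1.85 (adjusted p = 0.000537 and 0.000291), and both calls were lost in the single-control fit. BCL2L1 fell by 1.51 on the log2 scale, whereas BCL2A1, the survival gene of leukocytes, rose by 4.49 and BIRC3, an inhibitor of apoptosis, by 3.15. In all 14 of 26 apoptosis genes of either effect rose (53.8%, against 34.7% of all genes). The 5 falls (19.2%) were near the 16.1% of all genes, and the median was 0.66. These counts became 11 and 8 with median-of-ratios scaling and 5 and 1 in the single-control fit.

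Macrophage genes were high in every graft and low in controls. Of 23 tested markers 18 rose and 2 fell (median 2.63), 7 of the rises also in the single-control fit, and 13 more were under the filter. Markers near 0 in controls entered the test through libraries where they were high, so the filter in part set this count. Summed over the 23 tested markers, grafts held 741, 531, 1316 and 1483 FPKM and controls 80.5, 71.2, 78.1 and 71.4 FPKM. CD14, a receptor for bacterial lipid, held 179.6, 141, 283 and 309 FPKM in grafts, against 5.07, 5.05, 3.81 and 3.41 FPKM in controls (5.37, adjusted p = 2.6e-06). CD68, a glycoprotein of macrophage lysosomes, held 53.3, 45.7, 132 and 146 FPKM in grafts and was listed at 0 in all 4 controls. TREM2, a lipid sensor of foamy macrophages, held 18.1, 29.9, 82.7 and 99.5 FPKM in grafts, against 0.35, 0, 0 and 0.37 FPKM in controls. All 3 were highest in graft replicates 3 and 4, and C1QC, a chain of the first component of complement, was highest in replicate 1 (129, 67.2, 67.8 and 58.9 FPKM in grafts, against 6.4, 6.88, 6.49 and 7 FPKM in controls). CHIT1, chitotriosidase of lipid-laden macrophages, was even across grafts (31, 28, 33 and 34.2 FPKM, against 0.03, 0.13, 0 and 0 FPKM in controls). LYZ, lysozyme under this symbol, went the other way with a change of -2.44, as did CYBB (-0.70), and CD163, the scavenger receptor of resident macrophages, did not pass (adjusted p = 0.149).

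Lysosome, proton pump, lipid and iron genes rose beside the macrophage markers. Of 28 lysosome genes 21 rose and 1 fell, and of 15 genes of the pump that acidifies the lysosome 12 rose. The single-control fit called 5 and 2 of these rises. Foam cell and lipid handling genes rose in 12 of 20 and fell in 2. Heme and iron genes rose in 11 of 21, with 1 fall and 9 that did not pass. In each of these 2 lists the single-control fit kept 4 rises. The lysosome genes summed to 3176, 2914, 6521 and 7296 FPKM in grafts, against 1165, 1142, 1170.2 and 1147 FPKM in controls. ATP6V0D2, the pump subunit of macrophages and osteoclasts, held 69.7, 59.8, 188 and 208 FPKM in grafts, against 0.28, 0, 0.36 and 0.51 FPKM in controls. CTSB, a cathepsin protease, held 559, 575, 1554 and 1823 FPKM in grafts, against 98, 106, 111 and 93.9 FPKM in controls. FABP5 and FABP4, fatty acid carriers of macrophages and fat, rose by 5.37 and 4.12, and LPL, lipoprotein lipase, held 49.6, 80, 436 and 521 FPKM in grafts, against 8.45, 10.2, 8.69 and 8.28 FPKM in controls. HMOX1, which breaks down heme, held 74.5, 55.9, 366 and 449 FPKM in grafts, against 0, 0.21, 0.18 and 0.62 FPKM in controls. FTL, the light chain of ferritin that stores the freed iron, held 3936, 6493, 7672 and 8367 FPKM in grafts, against 484, 506, 507 and 483 FPKM in controls. In each of these genes graft replicates 3 and 4 were the highest, and what part the makeup of a graft has in these levels was not tested. HP, haptoglobin, fell by 3.21 on the log2 scale. The calls of CTSB, FABP4, LPL, HMOX1 and HP were lost in the single-control fit.

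Most tested genes of antigen presentation rose. Of 15 tested genes 14 rose, 12 of them also in the single-control fit, with a median of 3.14; 7 more were under the filter. RLA-DR-ALPHA, the alpha chain of class II in the rabbit, held 766, 429, 552 and 529 FPKM in grafts, against 10.8, 11.2, 13 and 11.6 FPKM in controls. Its partner RLA-DRB1 held 189.9, 154, 139 and 135 FPKM in grafts, against 2.39, 2.75, 2.42 and 2.72 FPKM in controls. B2M, the light chain of class I, rose by 3.78 to 421, 534, 244 and 214 FPKM in grafts, against 27.9, 22.1, 15.7 and 28.6 FPKM in controls. PSMB8, a subunit of the immunoproteasome, rose by 3.14, and PSMB10, another, was listed at 0 in controls and held 16.5, 18, 17.9 and 16.3 FPKM in grafts. CD74, the class II chaperone, was listed at 0, 98.5, 2.84 and 15.2 FPKM in grafts and at 0 in all 4 controls and did not pass (adjusted p = 0.0651), but it did without graft replicate 1 (adjusted p = 0.0112). IRF8 of the interferon list rose by 2.95, but 8 of its 18 genes did not pass.

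Lymphocyte genes were low and still higher in grafts. CD3E, part of the T cell receptor complex, held 3.06, 3.64, 2.97 and 4.04 FPKM in grafts, against 0, 0.14, 0.37 and 0.3 FPKM in controls. CD3D, of the same complex, held 6.74, 7.99, 3.23 and 7.27 FPKM in grafts, against 0, 0.15, 0 and 0 FPKM in controls. JCHAIN, the joining chain made by plasma cells, held 67.8, 28.1, 43.8 and 45 FPKM in grafts, against 0, 1.05, 1.56 and 0.4 FPKM in controls, and IGHM, the heavy chain of immunoglobulin M, rose by 2.71. Of 12 T and natural killer cell genes tested 10 rose, as did 6 of 6 tested B and plasma cell genes (6 and 3 in the single-control fit). Under the filter lay 19 further T and natural killer cell genes and 14 B and plasma cell genes. The tested T and natural killer cell genes summed to 2.85, 3.08, 2.84 and 2.95 FPKM in controls, so members entered the test through libraries where they were high, which in part sets the count of rises. Of 10 neutrophil and mast cell genes 6 rose (3 in the single-control fit). MMP9 and SRGN, given above with the proteases and proteoglycans, were among these rises, so the count does not mark these cells alone. S100A8 and S100A9, calcium-binding proteins of neutrophils, fell, with S100A8 at 112, 97.5, 54 and 56.9 FPKM in grafts and 304, 288, 275 and 309 FPKM in controls.

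Signals that draw and hold leukocytes rose in 22 of 29 cytokine genes and 22 of 30 receptor genes, against 1 and 4 falls. The single-control fit kept 9 and 9 of the rises, and 14 and 17 more genes were under the filter. CCL2, the attractant of monocytes, held 83.9, 33.8, 34.2 and 26.9 FPKM in grafts, against 0.76, 1.9, 1.58 and 0.36 FPKM in controls. CXCL8, the attractant of neutrophils, held 31.2, 11.1, 36 and 39.5 FPKM in grafts, against 0.07, 0.07, 0.42 and 0.19 FPKM in controls. Replicate 2 was the lowest graft for CXCL8 and replicate 1 the highest for CCL2. CXCR4, the receptor for a chemokine of stroma, held 31.1, 32.8, 43.8 and 45.4 FPKM in grafts, against 0.61, 0.2, 0.17 and 0.21 FPKM in controls (4.91, SE 0.17, adjusted p = 5.5e-07). Leukocyte adhesion genes rose in 12 of 16, with 1 fall, and the single-control fit kept 1 of these rises. VCAM1 rose by 2.71, a call lost in that fit, and ICAM1 by 1.27. IL17D was the cytokine that fell, by 3.34 on the log2 scale.

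Receptors of innate alarm rose in 13 of 19 tested genes, 4 of them also in the single-control fit. PYCARD, the adaptor that joins inflammasome sensors to their protease, held 17.4, 15.9, 15.1 and 15.5 FPKM in grafts, against 0.15, 0.29, 0.92 and 0.33 FPKM in controls (3.60, adjusted p = 2.36e-06). GSDMD, the pore protein cut by that protease, held 3.58, 3.4, 3.47 and 3.52 FPKM in grafts, against 0.18, 0.3, 0.23 and 0.22 FPKM in controls. Both genes were even across the 4 grafts. NLRP3, a sensor, rose by 1.80 and TLR4, the receptor that works with CD14, by 2.72, both lost in the single-control fit. IFNGR2, a chain of the interferon gamma receptor, held 47.9, 48.7, 51 and 49 FPKM in grafts, against 7.85, 5.86, 6.38 and 7.88 FPKM in controls, and IL4R, the receptor chain for a cytokine of T helper cells, held 14.7, 15, 16.2 and 16.6 FPKM in grafts, against 2.25, 2.4, 1.96 and 1.72 FPKM in controls. IL1R1 was listed at 0 in all 4 grafts, against 1.26, 1.43, 1.43 and 1 FPKM in controls.

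Of 13 genes that make lipid mediators from arachidonic acid 8 rose and 2 fell (1 and 1 in the single-control fit). PTGS1, the constitutive cyclooxygenase, fell to 2.25, 2.46, 1.39 and 1.25 FPKM in grafts, against 14.2, 14.1, 14.7 and 13.8 FPKM in controls. PTGS2, the inducible one, rose to 9.57, 9.34, 4.73 and 3.98 FPKM in grafts, against 0.91, 0.69, 0.85 and 1.33 FPKM in controls, a call lost in the single-control fit. PLA2G7, a phospholipase carried by lipoproteins and macrophages, held 82.9, 62.8, 168 and 185 FPKM in grafts, against 7.93, 5.28, 5.56 and 6.35 FPKM in controls, highest in replicates 3 and 4.

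**Figure D4:**
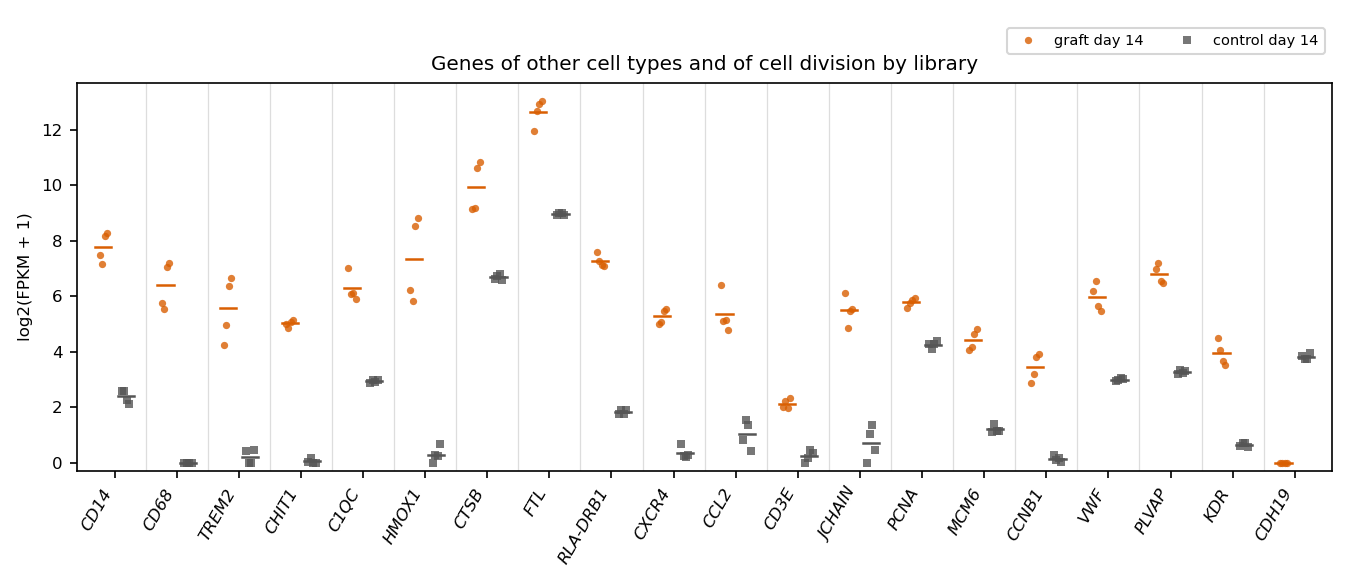
Levels of leukocyte, lysosome, cell division, endothelial and nerve genes on a log2(FPKM + 1) axis, with the 4 grafts of day 14 (orange, left) and the 4 controls of day 14 (grey, right) as points and group means as bars. All but CDH19 lie higher in all grafts than in any control.

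Endothelial genes were higher in grafts as well. Of 25 tested markers 17 rose and 1 fell (median 1.55), 9 of the rises also in the single-control fit. VWF, the clotting protein stored by endothelium, held 71.8, 93.5, 48.9 and 43.2 FPKM in grafts, against 6.75, 6.96, 7.28 and 7.1 FPKM in controls. PLVAP, which spans the pores of capillary and venous endothelium, held 127, 147, 91.8 and 87 FPKM in grafts, against 8.18, 9.07, 8.34 and 8.84 FPKM in controls, and KDR, a receptor of vascular endothelial growth factor, rose by 3.29 to 21.4, 15.9, 11.8 and 10.6 FPKM in grafts, against 0.54, 0.64, 0.64 and 0.49 FPKM in controls. The markers summed to 864, 896, 513 and 438 FPKM in grafts, against 134, 133, 141 and 138 FPKM in controls. In these 3 genes and in the sum replicates 1 and 2 were the highest, the reverse of the macrophage sum. NOS3, which makes nitric oxide in endothelium, did not pass (0.02, adjusted p = 0.984), and ESM1 was the marker that fell (-1.47). The labels do not say whether endothelium of the host vein is part of a graft sample, and its share was not tested.

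**Figure D5:**
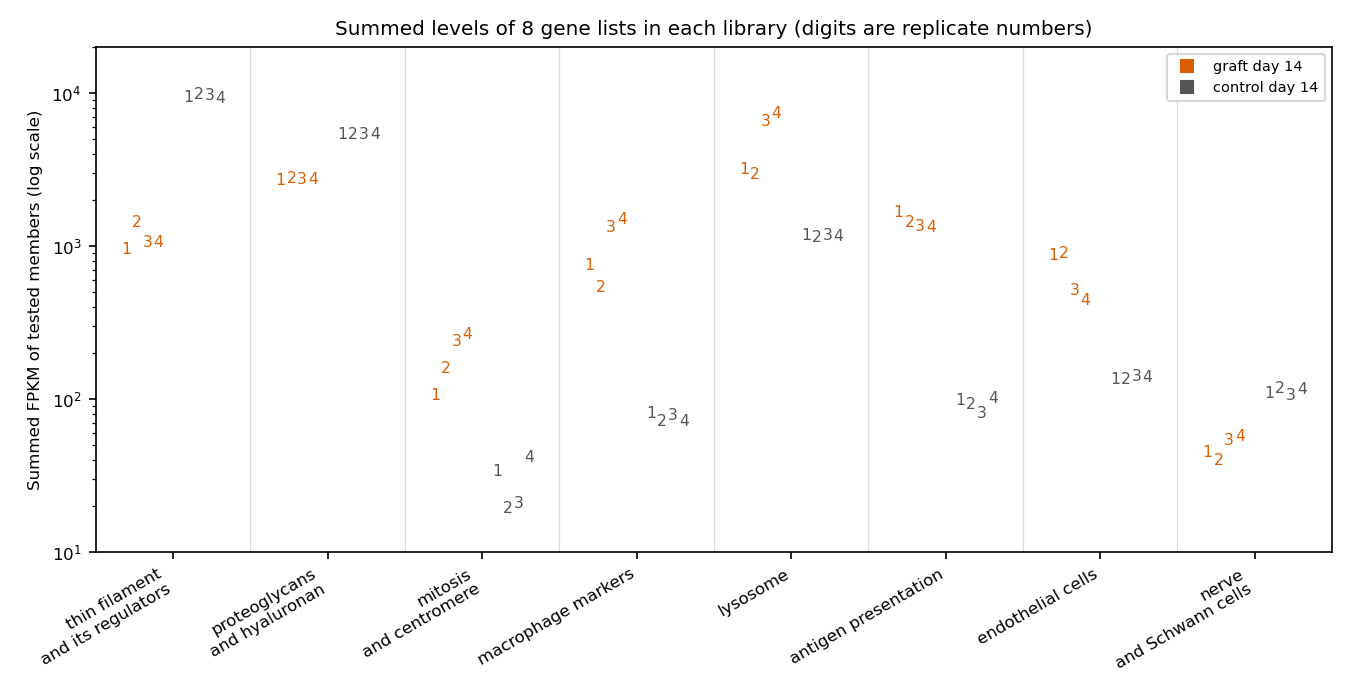
Summed FPKM of the tested members of 8 gene lists in each library, on a log10 axis; numbers are the replicate numbers of grafts of day 14 (orange, left) and controls of day 14 (grey, right). Graft replicates 3 and 4 hold more lysosome and macrophage RNA and replicates 1 and 2 more endothelial RNA, whereas the controls lie close together.

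Genes of clotting went both ways, with 6 of 14 higher and 4 lower (5 and 1 in the single-control fit). F3, tissue factor, which starts coagulation, held 3.19, 2.66, 2.8 and 3.1 FPKM in grafts, against 51.6, 51.1, 50.1 and 49.2 FPKM in controls (-3.71, SE 0.08, adjusted p = 7.77e-08). PLAU, an activator of plasminogen, rose by 1.57, and PLAUR, the receptor of that activator, held 34.4, 24.5, 50.2 and 53.8 FPKM in grafts, against 1.62, 1.06, 1.61 and 0.86 FPKM in controls. For F3, PLAU and PLAUR the calls held in the single-control fit.

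Of 17 artery, vein and Notch genes 11 rose and 2 fell (5 and 1 in the single-control fit). The list pools the 3 kinds, so its count gives no direction for any of them. Its largest rise was that of CXCR4, given above with the receptors. MFNG, a glycosyltransferase that tunes Notch receptors, held 51, 62.5, 45 and 49.1 FPKM in grafts, against 4.17, 3.57, 3.62 and 2.74 FPKM in controls, and HEYL, a target of Notch in smooth muscle, rose by 1.22. DNER, a Notch-like ligand, changed by -2.75. The call of HEYL was lost in the single-control fit.

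Chaperone genes fell for the most part. Of 35 tested genes 20 fell, 9 of them also in the single-control fit, and 3 rose (median -0.50). The share of falls was 57.1%, against 16.1% of all genes, and was larger in other lists, such as costamere (63.2%) and nerve genes (72.7%). CRYAB, alpha-B crystallin, a small heat shock protein of muscle, held 35.8, 40.9, 29.2 and 19.6 FPKM in grafts, against 2129, 2139, 2174 and 1972 FPKM in controls (-6.07, SE 0.21, adjusted p = 4.89e-07). BAG3, which works with it to clear damaged filament proteins, held 35, 29, 30.3 and 31.4 FPKM in grafts, against 238, 240.5, 239.5 and 234 FPKM in controls. HSPB8, the small heat shock protein bound by BAG3, changed by -2.61. Among the rises were PPIB and DNAJB11 of the endoplasmic reticulum, by 1.02 and 0.80. In the list of that compartment 15 of 32 genes rose and 2 fell (3 and 1 in the single-control fit).

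The calcium-binding S100 genes and their kin moved apart by member. S100A4 held 796, 789, 748 and 776 FPKM in grafts, against 297, 303, 305 and 308 FPKM in controls, and was even across grafts. ANXA8, an annexin that binds membrane lipid, held 111, 104, 115 and 109 FPKM in grafts, against 9.76, 12.5, 12.1 and 12 FPKM in controls. LGALS9, a galectin of immune cells, rose by 4.21, whereas S100B, which marks Schwann cells in nerve, fell by 3.94 on the log2 scale.

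Of the oxidant defences, TXN, thioredoxin, held 99.5, 86, 207 and 254 FPKM in grafts and was listed at 0 in all controls, and GPX1, a glutathione peroxidase, rose by 2.07. SOD3, the superoxide dismutase that arteries secrete, fell to 29.9, 31.4, 51.7 and 49 FPKM in grafts, against 400.3, 449.7, 443 and 428 FPKM in controls. Of 26 glycolysis and lactate genes 8 rose and 8 fell (5 and 8 with median-of-ratios scaling, 3 and 0 in the single-control fit), with muscle genes among the falls. SLC2A4, the insulin-driven glucose carrier, changed by -2.66 and PYGM, muscle glycogen phosphorylase, by -2.63. LDHA, which makes lactate, held 262, 273, 357 and 397 FPKM in grafts, against 51.5, 53.3, 50.4 and 54.6 FPKM in controls, and GPI, an enzyme early in glycolysis, rose by 1.79. ME3, a mitochondrial malic enzyme, fell to 1.11, 1, 1.12 and 0.61 FPKM in grafts, against 25, 24.9, 25.1 and 23.3 FPKM in controls.

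Nuclear genes of the respiratory chain rose modestly, 22 of 42, at a median of 0.47 against 0.26 over all genes. With median-of-ratios scaling 14 rose and 1 fell, with TPM scaling 6 rose and 2 fell, and the single-control fit kept 1 rise. COX8A and UQCRQ of the chain rose by 1.54 and 1.55. The 13 genes that the mitochondrion itself encodes behaved otherwise: they made up 23.4, 32.7, 10.5 and 3.98% of the summed FPKM of graft replicates 1 to 4, against 22.6 to 24.2% in controls. In graft replicate 4, 8 of the 13 stood under 5 FPKM. COX2, a mitochondrially encoded subunit of cytochrome oxidase that was chosen, like the set, after its values were seen, held 14718, 27348, 3446 and 3.43 FPKM in grafts, against 9732, 9843, 9895 and 9894 FPKM in controls. It did not pass (adjusted p = 0.412), with grafts on both sides of the controls. FPKM is scaled to the library, and the part of these transcripts in the levels of other genes was not tested beyond the other scalings.

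Of 19 clock and nuclear receptor genes 8 fell and 5 rose (4 and 3 in the single-control fit). NR1D1, a nuclear receptor that represses clock genes, held 4.09, 3.37, 3.6 and 3.75 FPKM in grafts, against 24, 23.8, 24.9 and 22.8 FPKM in controls. Its relative NR1D2 held 21.1, 14.1, 17.7 and 17.8 FPKM in grafts, against 84.9, 82.4, 83 and 83.1 FPKM in controls. HLF, an output factor of the clock, changed by -3.53, and BHLHE40, a repressor of clock genes, rose by 1.75. The hour of collection is not given for either group. KLF15 and KLF9, glucocorticoid-responsive factors, changed by -4.53 and -2.54. EGR2, an immediate early factor, rose by 2.67.

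Immediate early and Kruppel-like genes differed among the grafts. Summed over 30 genes, grafts held 2027, 1626, 661 and 402 FPKM and controls 508, 532, 519 and 505 FPKM, so replicates 1 to 3 stood above the controls and replicate 4 below. Of these genes 13 rose, 3 fell and 14 did not pass, and with median-of-ratios scaling 7 rose and 7 fell; the single-control fit kept 4 rises and 2 falls. DUSP5, a phosphatase that turns off growth factor kinases, was even in grafts at 2.6, 3.44, 3.47 and 3.71 FPKM, against 0.15, 0.09, 0.09 and 0.05 FPKM in controls (1.97). ZFP36L1, which marks RNAs for decay, held 207, 144, 121 and 108 FPKM in grafts, against 31.4, 30.1, 30.9 and 31.7 FPKM in controls, highest in replicate 1.

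Of 40 TGF-beta and BMP genes 14 fell and 8 rose (median -0.53), with 5 falls and 2 rises kept in the single-control fit. BAMBI, a decoy receptor that damps the pathway, held 2.1, 6.25, 3.64 and 3.86 FPKM in grafts, against 107, 105, 112 and 105 FPKM in controls. BMPR1A, a receptor for bone morphogenetic proteins, changed by -1.40. TGFBR2 and ENG, receptor and co-receptor for TGF-beta, rose by 1.09 and 1.72, with calls lost in the single-control fit. In the Wnt list SOST, sclerostin, an inhibitor of Wnt receptors, held 0, 0.26, 0.02 and 0.02 FPKM in grafts, against 16.9, 18.5, 18.9 and 17.9 FPKM in controls. AXIN2, a target that feeds back on Wnt, changed by -1.19, and LEF1, a factor of Wnt and of T cells, rose by 2.00.

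Among growth factors and their receptors 18 of 45 fell and 15 rose (8 and 4 in the single-control fit). PDGFRB, the platelet-derived growth factor receptor of mural cells, held 76.5, 58.4, 60.3 and 51.4 FPKM in grafts, against 20.8, 20.7, 23 and 21 FPKM in controls, and its ligand PDGFB rose by 1.73. AXL, a receptor kinase of smooth muscle survival, was listed at 0 in all 4 grafts, against 14.4, 18.6, 13.8 and 14.4 FPKM in controls, and VEGFD, a growth factor for lymphatic vessels, likewise, against 8.11, 9.89, 10.2 and 6.07 FPKM in controls. YAP1, the effector of the Hippo pathway that responds to stretch, held 7.09, 7.48, 7.46 and 7.19 FPKM in grafts, against 37.8, 37, 35.8 and 39.6 FPKM in controls (-2.21, SE 0.07, adjusted p = 4.02e-07). PIEZO2, a stretch-gated channel, rose by 2.25. Within each of PDGFRB, YAP1 and PIEZO2 the grafts did not meet the controls.

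Most tested genes of nerve and striated muscle fell (4 of 6 in muscle, 3 of them also in the single-control fit), and some of adventitia. CDH19, a cadherin of Schwann cells, was listed at 0 in all 4 grafts, against 13.5, 12.4, 12.6 and 14.4 FPKM in controls. SOX10, the factor that defines these cells, changed by -1.23. Of 11 tested nerve genes 8 fell, 7 of them also in the single-control fit, and 3 rose. The largest of these rises was that of EGR2 (2.67), a list member given above as an immediate early factor. The single-control fit kept 0 of these rises. A further 14 nerve and 23 striated muscle genes were under the filter and were not tested. Summed, the 11 tested nerve genes held 44.6, 39.9, 53.8 and 56.6 FPKM in grafts, against 108, 117, 105 and 115 FPKM in controls. TNNC1, a troponin of heart and slow muscle, held 4.27, 14.4, 3.72 and 2.44 FPKM in grafts, against 176, 176, 188 and 158 FPKM in controls, and TCAP, which caps titin in striated muscle, held 31.4, 55.2, 6.17 and 4.2 FPKM in grafts, against 379, 426, 420.2 and 388 FPKM in controls. PI16, a marker of adventitial fibroblasts, held 41.5, 72.1, 13.2 and 2.82 FPKM in grafts, against 533, 723, 682 and 593 FPKM in controls, and graft replicate 4 was the lowest in all 3 of these genes. Of 23 fibroblast and adventitia genes 8 fell and 8 rose, the share of rises (34.8%) being close to the 34.7% of all genes (8 and 6 with median-of-ratios scaling, 3 and 2 in the single-control fit). CRABP2, a carrier of retinoic acid, rose by 2.36.

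Fat cell genes went both ways, and rises outnumbered falls over all genes too. ADIPOQ, adiponectin, a hormone of fat cells, held 77.9, 90.1, 50.3 and 46.6 FPKM in grafts, against 19.5, 18.9, 21 and 17.6 FPKM in controls. CIDEA, a protein of lipid droplets, held 0, 0, 0.07 and 0 FPKM in grafts, against 3.87, 3.79, 2.34 and 4.23 FPKM in controls. In the list 5 of 11 rose (45.5%, against 34.7% of all genes) and 2 fell (18.2%, near the 16.1% of all genes). The single-control fit kept 0 rises and 2 falls. The summed level of the list, 313, 449, 1239.7 and 1437 FPKM in grafts, against 64.2, 66, 65.4 and 64.3 FPKM in controls, was carried by FABP4 and LPL, which macrophages also make. Of 5 red cell and platelet genes 1 fell. Their sum was 3920.2, 3778, 1287 and 651 FPKM in grafts, against 756, 759, 728 and 772 FPKM in controls, so grafts lay on both sides of the controls.

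The deepest fall of a named gene was that of BCHE, butyrylcholinesterase, an enzyme that splits choline esters, at 2.07, 1.07, 0.4 and 0.17 FPKM in grafts and 176, 165, 171 and 174 FPKM in controls (-6.58, SE 0.28). EFHD1, a calcium-binding protein of mitochondria, held 4.96, 12.4, 4.66 and 4.48 FPKM in grafts, against 248, 280.0, 273 and 291 FPKM in controls. SPINK8 and SUSD5 changed by -5.22 and -4.98 with groups far apart. On the other side GUSB, a lysosomal glucuronidase, and MLANA, a melanosome protein, rose by 6.06 and 5.43. GUSB held 51.8, 50.3, 181 and 197 FPKM in grafts, against 0, 0, 3.87 and 0 FPKM in controls.

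Under every alternative that tested them, including the single-control fit without graft replicate 3, 20 genes (0.231%) were called higher and 50 (0.578%) lower. Of these, 19 genes, AXL, VEGFD, PRELP, MRVI1 and CDH19 among them, were listed at 0 in all 4 grafts, so that the grafts gave them no spread and their call in the single-control fits says nothing of stability. Of the genes at 0 in none of the 8 libraries, 12 higher and 16 lower remained. Among genes named above, MMP12, CXCR4, MFNG and RLA-DRB1 were among these rises, and PLN, BAG3, F3 and SUSD5 among these falls. Other calls named above were lost in the single-control fits and under further settings. KLF4, TPM4, MYH9 and SPP1 were not called under at least 1 of the other scalings, LAMB1 and DNAJB11 not with TPM scaling, and FBN1 was called lower with median-of-ratios and quantile scaling. CALD1, ICAM1, LYZ, S100A8, S100A9 and TIMP4 were not called when all 20 libraries shared 1 estimate of the spread. CD74 was called under 4 further settings and MYOCD under 6, which changed pseudocount, filter, scaling, weights or samples, and CD163 with library weights. No gene called above changed direction under any alternative, though where the groups do not overlap only a change of scaling could turn it.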

How the data were processed

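RNA sequencing values of 20 rabbit vessel libraries were used, 8 of them in the comparison. The authors deposited FPKM per transcript and sample; per the submitters' processing notes the tools were fastp, HISAT2, StringTie, RSEM and DESeq2, with versions, roles and genome build not given in the sources used here. No counts were used, so depth and counting error are unknown. Summing the FPKM of 24964 transcripts gave 23669 genes; 1278 genes combine several transcripts. A gene was kept where 4 or more of the 20 libraries reached 1 FPKM (8657 genes); 6825 had a symbol in the deposited table, 613 were named through RefSeq by accession and 1219 had none. Genes near 0 in both groups therefore did not enter a list's tested members.

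Log2(FPKM + 1) was fitted with limma 3.58.1 in R 4.3.3 (trended variance, two-sided, Benjamini-Hochberg adjustment over the 8657 genes, threshold 0.05), with 4 grafts and 4 controls and no block. The main fit and those with weights per group or a replicate block were also run on simulated independent libraries, with the outcome not reported here. The single-control fits and libraries as alike as graft replicates 3 and 4 were not simulated. Sums and figures were made in Python 3.11.15 with pandas 2.3.3, numpy 2.4.6, scipy 1.17.1 and matplotlib 3.10.9. Members of the 72 gene lists, 1393 tested genes in all, and the tests were chosen with earlier results of these data known.

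Genes named are the 15 largest rises and the 15 largest falls whose groups did not overlap and whose higher group averaged 5 FPKM or more, a fixed set of study genes, and for each list the members with the smallest adjusted p, a few in the rarer direction and the most abundant that did not pass. A gene may also stand beside named members of its complex or family. Alternatives changed the pseudocount, filter, scaling, libraries, weights, variance moderation, number of control samples, treatment of genes listed at 0 and block. Some genes that the rule allows are not reported here.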

Additional observations from a re-analysis of the deposited data

Results flagged for a closer look

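In each group of 4 libraries, 1 value was looked for that stood far from the other 3, by the gap to its neighbour over the group's whole range, past Dixon's 95% limit. For the 206 named genes, grafts and controls made 412 groups of 4. Groups of equal values or with a highest value under 1 FPKM were passed over, so fewer were examined. In those examined 21 such values were found, and chance gives about 1 in 20 groups of independent values. Grafts of day 14 held 12 of these 21 values, 9 in replicate 2. Graft replicates 3 and 4 lay close to each other, so a value apart from the other 3 falls more readily on replicate 1 or 2. This holds alike for replicates 1 and 2. Replicate 2 had the largest summed FPKM of the grafts (671582, against 557827, 422889 and 371438 in replicates 1, 3 and 4). The part of that sum in these values was not tested.

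In graft replicate 2 the highest values that stood apart were those of MYL6 (4991 FPKM, against 2710.0 in the nearest graft), MFAP4 (686 against 375), CRABP2 (159.9 against 112), CD74 (98.5 against 15.2), MFAP5 (45.1 against 27.4), TNNC1 (14.4 against 4.27), EFHD1 (12.4 against 4.96) and ADRA1B (1.24 against 0.52). CFL2 at 1.84 FPKM (nearest 10.6) stood below the other grafts there. In graft replicate 1, C1QC held 129 FPKM (nearest 67.8), CCL2 83.9 FPKM (nearest 34.2) and KCNMA1 15.4 FPKM (nearest 8.25).

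Among controls of day 14 the gaps were small for most genes. Control replicate 2 held 18.6 FPKM of AXL (nearest 14.4) and 1.65 FPKM of MCM6 (nearest 1.23), and was lowest in GPI at 47.5 FPKM (nearest 49.1). Control replicate 3 held 35.9 FPKM of TGFBR2 (nearest 34.7) and 23.0 FPKM of PDGFRB (nearest 20.98), and was lowest in TLR4 at 1.03 FPKM (nearest 1.65). It held 3.87 FPKM of GUSB and 1.27 FPKM of SSPN, both listed at 0 in the other controls. Control replicate 4 was lowest in ME3 at 23.3 FPKM (nearest 24.9).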

How the results depend on the processing

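Of 199 named genes that were called, the direction was kept in each of the 22 other settings that tested the gene. Where the groups do not overlap, only a change of scaling could turn the direction. For such genes the other settings are no test of it. Of 4401 calls (3004 higher and 1397 lower in grafts), the lower calls moved to 2188 with quantile normalization and the higher calls to 1764 with TPM scaling. Counting the controls as 1 sample gave 942 calls, 550 higher and 392 lower; leaving out graft replicate 3 as well gave 78 calls, 20 higher and 58 lower, and 176 of the 199 named genes that had been called no longer passed. Fewer samples enter both fits. Leaving out each of the 8 libraries in turn gave 3817 to 4652 calls, 2619 to 3239 higher and 1197 to 1413 lower. Without a filter on low values 3332 genes were called higher and 1576 lower; at 5 FPKM fewer genes were tested (5264), and 2083 were higher and 1026 lower.

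With the replicate number as a block 3947 genes were called, 2710 higher and 1237 lower, and of the named genes KLF4 alone lost its call. Same-numbered grafts and controls deviated with correlations of 0.127, -0.0792, -0.107 and 0.0412. These values show no pairing by number, and with controls this close to each other they cannot show whether a graft and a control share an animal. The number of reads behind the FPKM values is unknown, which leaves differences of genes at a few FPKM without a counting error. A value of 0 can be a failed estimate, and 1616 tested genes were listed at 0 in at least 1 of the 8 libraries; without them 2614 genes were called higher and 1236 lower.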
